A study of Rattus norvegicus with 9 samples.

Results

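Beta-defensins are small cationic peptides of innate defence, and this account follows every probe for them on rat expression arrays of amygdala RNA. Members were the non-control probes whose gene name in the scanner files began with Defb. There were 44 such probes, with 41 gene names, among 45598 probes in all. The family was picked from the signal of Defb42, which had the smallest p of all probes in the comparison of estradiol with vehicle on these same arrays. The difference of Defb42 is therefore a description with no test. The other members were taken by name alone.

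Each of 9 arrays held RNA of 1 female spontaneously hypertensive rat (SHR, an inbred strain with high blood pressure), from the left and right amygdala together. In the OV+E2 group 5 rats had their ovaries removed at 4 weeks of age and then carried a minipump releasing 2 µg of estradiol a day for 4 weeks. In the OV group 4 rats had the same surgery and a pump with the polyethylene glycol vehicle. All rats were 9 weeks old when tissue was taken, and no rat with intact ovaries or of another strain was analysed here.

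The arrays lay on 2 slides, with OV+E2 replicates 1 and 2 and OV replicates 1, 2 and 3 on slide 1, and OV+E2 replicates 3, 4 and 5 and OV replicate 5 on slide 2. The 75th percentile of the signal was 623.0 to 737.6 on the OV+E2 arrays and 556.8 to 697.8 on 3 OV arrays, but 129.7 on OV replicate 3. The mean correlation of OV replicate 3 with the other arrays was 0.932, against 0.981 to 0.984 for the rest, and results that rest on it are given with and without it. The authors' column for that rat did not follow its scanner file, and which of them holds that rat is not known. All 10 neuronal and amygdala markers were bright enough to test, among them Slc17a7, Gad1, Prkcd and Sst.

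Beta-defensins fold around disulfide bonds between conserved cysteines, and an adjacent cysteine pair closes the motif near the end of the peptide. They disrupt microbial membranes and attract immune cells through the chemokine receptor CCR6. Epithelia of skin, gut, airway and kidney make them, and in rodents a large share of the family is made in the epididymis, where several coat sperm. Their genes lie in tandem clusters.

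The probes carry the family's signature in their own letters. The 60-base probes below read open in 1 frame up to a final stop codon, as 19 of the 44 members do. They are shown because the first 4 belong to the chromosome 15 cluster of Defb42 and Defb43, and the last 2 show a detected and an undetected member that both hold the cysteine pair. Capitals mark 2 adjacent cysteine codons, each of them TGC or TGT, searched on the printed strand in any frame.
Defb42 (chr15:42247668-42247727, minus strand, rn4): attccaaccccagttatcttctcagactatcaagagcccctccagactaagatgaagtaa
Defb43 (chr15:42290840-42290899, plus strand, rn4): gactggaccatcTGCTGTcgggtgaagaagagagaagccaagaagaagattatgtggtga
Defb30 (chr15:42310906-42310965, minus strand, rn4): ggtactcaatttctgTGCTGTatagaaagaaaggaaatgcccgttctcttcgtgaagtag
Defb44 (chr15:42327580-42327639, plus strand, rn4): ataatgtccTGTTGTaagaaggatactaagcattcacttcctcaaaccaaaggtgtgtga
Defb51 (chr16:75365203-75365262, plus strand, rn4): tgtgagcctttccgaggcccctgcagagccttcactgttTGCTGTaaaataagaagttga
Defb50 (chr16:74931529-74931588, minus strand, rn4): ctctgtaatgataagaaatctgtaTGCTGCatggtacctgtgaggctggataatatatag

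The pair was present in 24 of 44 beta-defensin probes (54.5%), against 8.36% of all probes of this length. It was in 6 of the 14 probes bright enough to test and in 18 of the 30 that were not. Median GC content was 45% in both of those sets, each with a range of 35% to 55%. The Defb42 probe holds no such pair.

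Most of the family was not well above background in the amygdala. A probe counted as detected on an array when the scanner software called its spot well above background. Of 44 members 24 were detected on 0 of 9 arrays, 6 on 1 to 3 arrays and 14 on at least 4 arrays, which was the minimum for a test. The last share was 31.8%, against 66.3% of all probes. On at least 1 array 20 members were detected (45.5%, against 75.2% of all probes). On all 9 arrays 9 members were detected (20.5%, against 51.4% of all probes). The 24 members never detected had processed signals of 2.4 to 13.2 with a median of 3.90, in arbitrary intensity units. With the looser flag for a signal above background, 25 of 44 members reached 4 arrays. The share of all probes under that flag was not worked out, so this count has nothing to be read against. Among the 24 never detected were Defb4 and Defb14, inducible beta-defensins of epithelia, and Defb2 and Defb3. By accession the probe named Defb3 matched the RefSeq gene now called Defb4.

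Detection was spread unevenly over the rn4 clusters. On chromosome 3, where 13 probes span 192 kb, 7 were detected on at least 4 arrays: Defb20, Defb22, Defb24, Defb25, Defb27, Defb29 and Defb36. On chromosome 16, where 21 probes span 812 kb, 4 were: Defb1, Defb51, Defb52 and Defb9. On chromosome 15, where 5 probes span 80.0 kb, Defb42 and Defb43 were detected on all 9 arrays and Defb30, Defb41 and Defb44 on 0. Of 4 probes on chromosome 9 none reached 4 arrays, and Defb17 there was detected on 0 of 5 OV+E2 and 2 of 4 OV arrays.

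**Figure D1:**
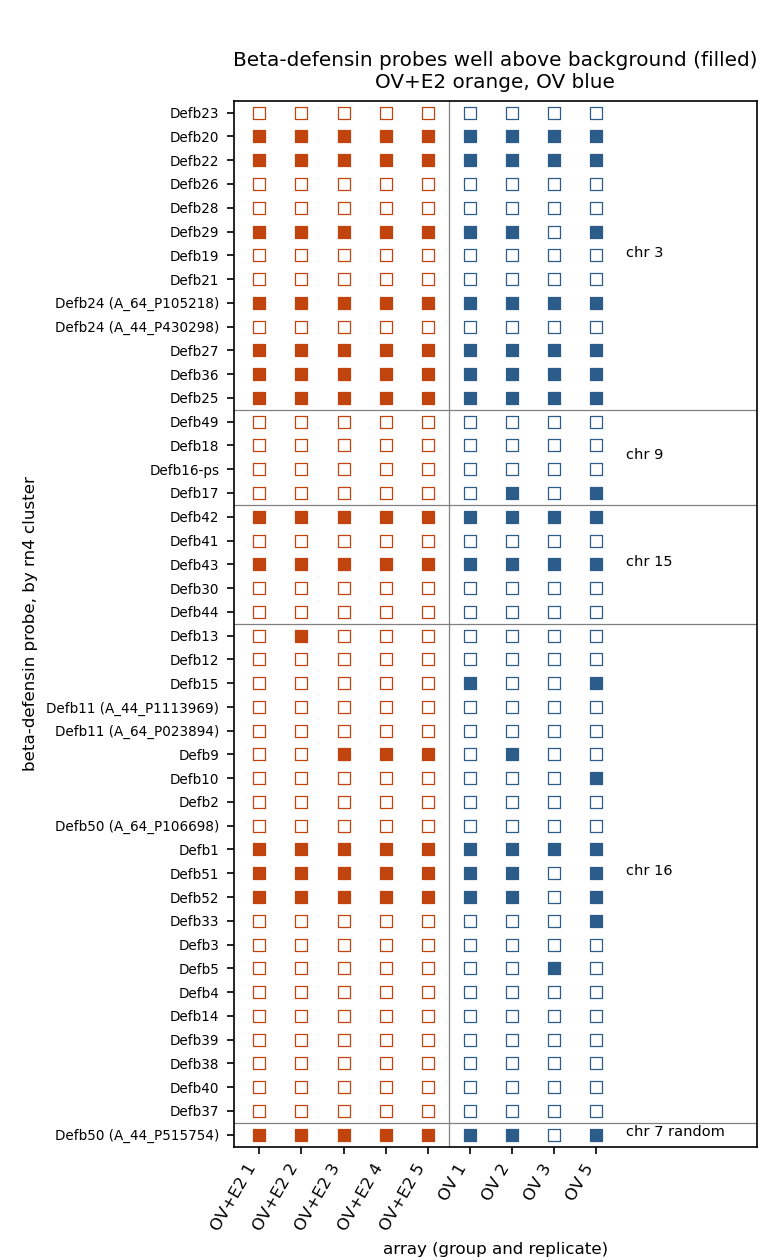
Detection of each of the 44 beta-defensin probes (rows, ordered by position within rn4 clusters) on each array (columns, OV+E2 left and OV right); filled squares mark spots well above background. Members detected on at least 4 arrays form 7 rows on chromosome 3, 4 on chromosome 16, 2 on chromosome 15 and 1 on an unplaced part of chromosome 7. Another 6 rows are filled on 1 to 3 arrays, and 24 rows are empty.

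Of 3 gene names with 2 probes, Defb50 and Defb24 gave differing answers. The Defb50 probe printed above was detected on 0 of 9 arrays. The other probe that the files name Defb50, placed at 616144 to 616202 on the unplaced part of chromosome 7, was detected on 5 of 5 OV+E2 and 3 of 4 OV arrays. Defb24 was detected on 9 of 9 arrays by one probe and on 0 of 9 by the other, which lies on the opposite strand of rn4. Both probes of Defb11 were detected on 0. Which transcript the second Defb50 probe reads was not tested, and its values are given under the name in the files.

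The number of detected members per array was 13 to 14 on OV+E2 arrays and 10 to 17 on OV arrays. The lowest of these was OV replicate 3 with 10 and the highest OV replicate 5 with 17, and the same 2 arrays held the lowest and highest share of all probes detected, 53.1% and 68.9%. Just inside the minimum lay Defb9, detected on 3 of 5 OV+E2 and 1 of 4 OV arrays. Just outside lay Defb17 and Defb15, an epididymal beta-defensin in the rat, each detected on 0 of 5 OV+E2 and 2 of 4 OV arrays. With the OV+E2 level set at the lowest signal that counts as detected, Defb15 came out 1.56-fold lower in OV+E2. Without OV replicate 3 the fold was 1.45. Neither is a strict bound, as the OV mean includes arrays on which Defb15 was not detected (OV replicates 2 and 3). Detection in OV only picked it out, so its direction is a description with no test. Defb5 and Defb10 were each detected on 0 OV+E2 arrays and 1 OV array, which for Defb5 was OV replicate 3. Worked out in the same way each was 1.06-fold lower, which rested on OV replicate 3, and without that array no fold could be given. For Defb17 and Defb33 none could be given with all arrays, and Defb13 was detected on a single OV+E2 array.

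Estradiol was compared with vehicle for the 14 detected members in a limma fit over all 30215 probes detected on at least 4 arrays. Values are log2 signal minus the 75th percentile of the array, which is meant to put arrays of unequal brightness on a common scale. For dim probes it did not do so on OV replicate 3. Every member never detected lay higher there than on any other array, as with Defb18 at −5.76 against −7.78 to −7.51. Differences are OV+E2 minus OV with the standard error of the fit (n = 5 OV+E2 and 4 OV). Errors of group means are SD. No probe of any gene passed an adjusted p of 0.05 in this fit (0% of all probes tested, and 0 of the 13 members other than Defb42). The smallest adjusted p among the 13 was 0.481, for Defb27. At an unadjusted p under 0.05 there was 1 of 13, Defb27, which was lower, against 10.4% of all probes in either direction, 7.17% lower and 3.21% higher. The unadjusted p of Defb27 was 0.0499 in limma. Without OV replicate 3 the 1 member was Defb36, which was higher, against 14.1% of all probes in either direction. Of the 13, 7 were lower and 6 higher in OV+E2, against 49.8% of all probes lower. The groups did not overlap for 0 of the 13 (6.9% of all probes, 4.01% on the lower side), and likewise for 0 without OV replicate 3 (10.4% of all probes, 5.02% higher). Their median difference was −0.03, against 0.00 for all probes tested.

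Defb42, known in the mouse as an epididymal beta-defensin, had processed signals of 37.2, 31.5, 35.05, 35.3 and 42.7 on the OV+E2 arrays. On OV arrays 1, 2, 3 and 5 it had 63.8, 62.2, 15.5 and 82.0. The 3 OV arrays of ordinary brightness lay above every OV+E2 array, and OV replicate 3, the dim array, lay below them all before scaling. After scaling Defb42 averaged −4.22 ± 0.07 in OV+E2 and −3.17 ± 0.20 in OV, and all 5 OV+E2 arrays (−4.31 to −4.11) lay below all 4 OV arrays (−3.45 to −2.98). On OV replicate 3 the lowest signal that counted as detected was 12.2, against a 75th percentile of 129.7. Any probe detected there would scale above these OV+E2 values, so the place of that array was fixed by detection. The groups were also apart without it. The difference was −1.06 (SE 0.11), a level 2.08-fold lower in OV+E2.

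The Defb42 difference was −1.02 within slide 1, −1.22 within slide 2 and −1.02 without OV replicate 3. All of these arrays took part in the choice of Defb42, so these values describe it and support nothing.

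Defb43, the next detected gene of the same cluster, had processed signals of 153.5, 115.9, 146.0, 224.8 and 211.0 on the OV+E2 arrays. On OV arrays 1, 2, 3 and 5 it had 93.9, 391.7, 769.9 and 468.5. OV replicates 2, 3 and 5 were above every OV+E2 array and OV replicate 1 was below them all, so the groups overlapped. The highest signal came from OV replicate 3, the array on which most probes were dim.

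On the scaled values Defb43 averaged −2.03 ± 0.34 in OV+E2 and −0.33 ± 2.24 in OV. The SD in OV was larger than that of 99.8% of all probes tested. The difference was −1.70 (SE 0.88, 95% confidence interval −3.69 to 0.28, adjusted p = 0.508 in limma). Without OV replicate 3 it was −0.74, and without OV replicate 1 it was −2.56 (adjusted p = 0.164 in limma). With limma's array weights, under which 3506 of all probes passed, it was −1.24 and passed (adjusted p = 0.0479). In the authors' deposited table Defb43 stood at 282.9 on OV replicate 3, and the difference computed from that table was −0.76.

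**Figure D2:**
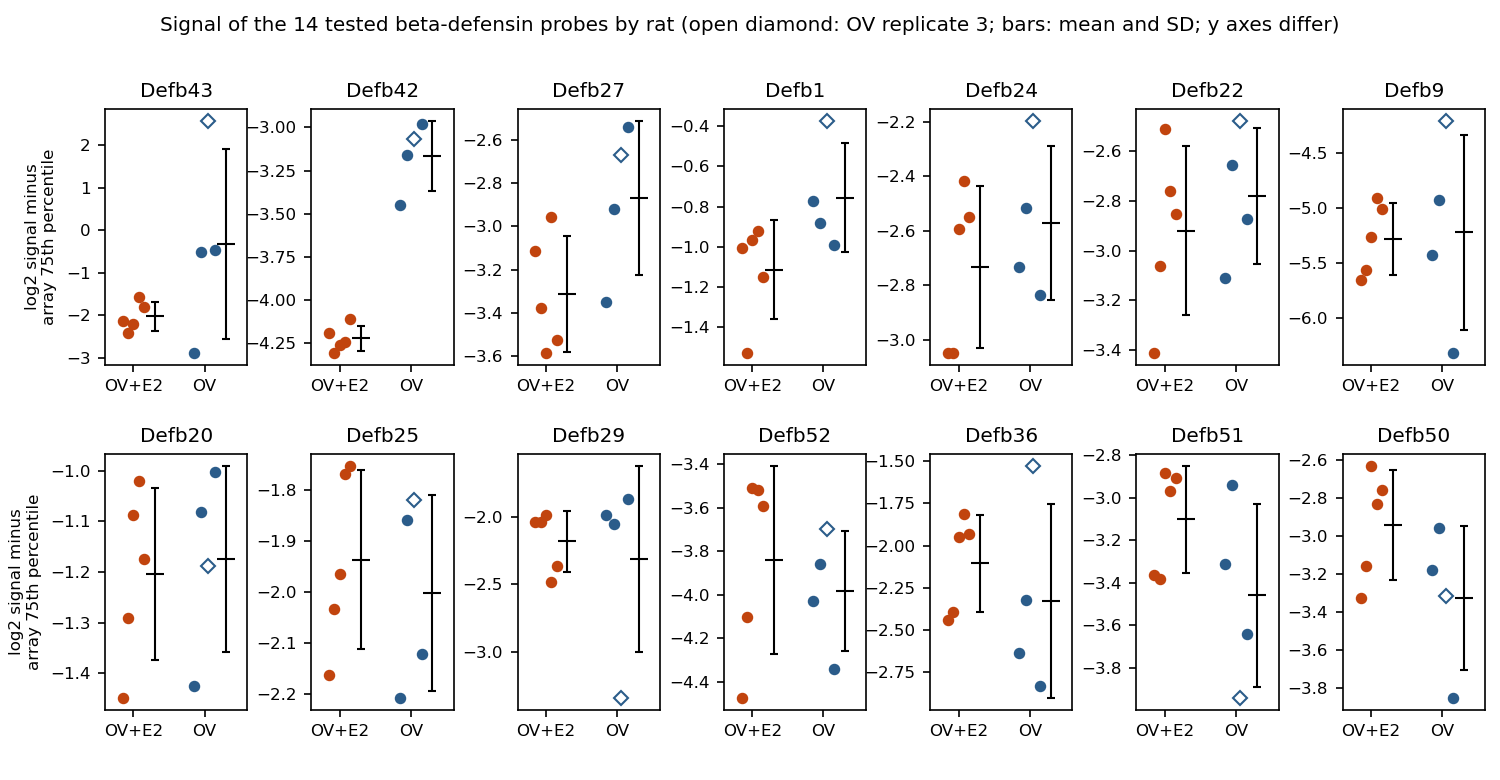
Signal of the 14 tested probes by rat on a log2 scale relative to the array's 75th percentile, with OV+E2 left and OV right in each panel, mean and SD as bars, and the dim array OV replicate 3 as an open diamond; axes differ between panels. Defb42 is the only panel in which the groups do not overlap, and Defb43 spreads from −2.89 to 2.57 within OV. For Defb42 the place of OV replicate 3 above OV+E2 follows from detection on that dim array.

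Genes around the chromosome 15 cluster were read for context. Within 250 kb of its ends lay 10 other probes, 6 of them bright enough to test, with differences of −0.33 to 0.17 and a median of −0.19. The nearest, Wdfy2, whose product is an endosomal adaptor, lay at −25.53 kb from Defb42 and was at 0.17 (SE 0.11, adjusted p = 0.522 in limma). On the other side Ctsb, the gene of the lysosomal protease cathepsin B, was at −0.24 (SE 0.20) and Fdft1, the gene of squalene synthase, at −0.14 (SE 0.14). None of the 6 passed at an unadjusted p of 0.05 in limma.

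**Figure D3:**
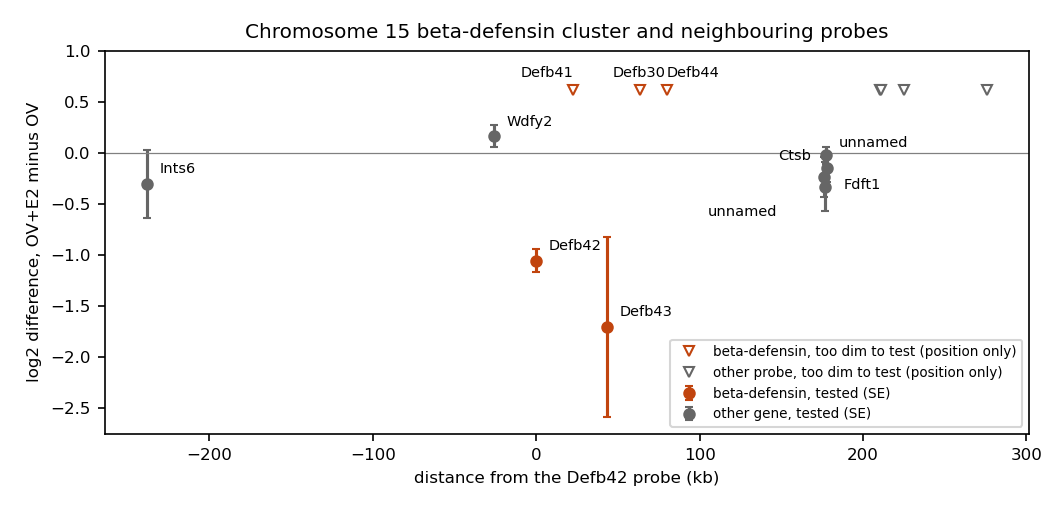
Log2 difference (OV+E2 minus OV, bars are SE) of probes in and beside the chromosome 15 cluster, by distance from the Defb42 probe in kb; open triangles show only the position of probes too dim to test. Defb42 lies at −1.06 and Defb43 at −1.70, and the 6 tested neighbours lie between −0.33 and 0.17.

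On chromosome 16 the constitutive epithelial beta-defensin Defb1 had processed signals of 338.1, 216.0, 342.8, 352.2 and 332.7 on the OV+E2 arrays. On OV arrays 1, 2, 3 and 5 it had 408.1, 302.3, 100.1 and 326.1. The groups overlapped, with OV+E2 replicate 2 lowest after scaling. The difference was −0.36 (SE 0.17, adjusted p = 0.495 in limma), and −0.23 without OV replicate 3. Defb51 was at 0.36 (SE 0.21), Defb52 at 0.14 (SE 0.23) and Defb9 at −0.06 (SE 0.38). None of Defb51, Defb52 and Defb9 was detected on OV replicate 3, and without it they were at 0.20, 0.24 and 0.28. For Defb9 the undetected value on that array, −4.20 after scaling, was the highest in OV.

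On chromosome 3 Defb27 had processed signals of 78.6, 59.9, 55.8, 85.8 and 64.0 on the OV+E2 arrays. On OV arrays 1, 2, 3 and 5 it had 68.4, 73.6, 20.4 and 111.5. The groups overlapped before and after scaling, and the difference was −0.44 (SE 0.20, adjusted p = 0.481 in limma). Without OV replicate 3 it was −0.38, with an interval of −0.86 to 0.10. Defb36 had 125.4, 118.4, 173.4, 190.1 and 193.2 on the OV+E2 arrays. On OV arrays 1, 2, 3 and 5 it had 112.1, 111.2, 45.002 and 91.0. After scaling OV replicate 3 was the highest array for Defb36 and OV replicate 5 the lowest. The difference was 0.22 (SE 0.27), and 0.49 without OV replicate 3 (adjusted p = 0.285 in limma).

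The remaining members of chromosome 3 differed less. Defb22, a sperm-coating protein of the rat epididymis, was at −0.14 (SE 0.20) and Defb24 at −0.16 (SE 0.19), and without OV replicate 3 they were at −0.039 and −0.036. Defb20 was at −0.03 (SE 0.13), with an interval of −0.31 to 0.26, and Defb25 at 0.07 (SE 0.13), with an interval of −0.23 to 0.36 and a value of 0.13 without OV replicate 3. Defb29, another epididymal beta-defensin, was at 0.13 (SE 0.29), and at −0.21 without OV replicate 3. The second Defb50 probe, not detected on OV replicate 3, was at 0.39 (SE 0.21), and at 0.39 without that array.

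**Figure D4:**
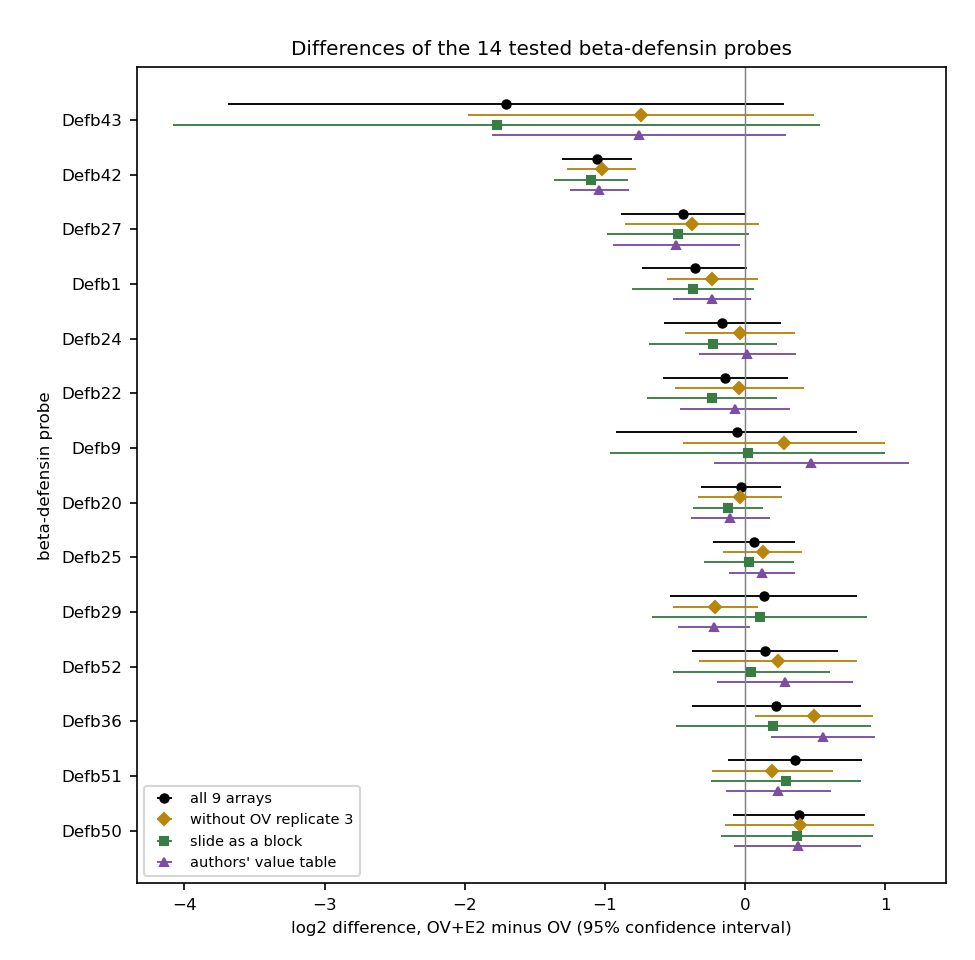
Log2 difference (OV+E2 minus OV) of the 14 tested probes with 95% confidence intervals from all 9 arrays, without OV replicate 3, with slide as a block, and from the authors' value table. Defb42 lies between −1.10 and −1.02 in all 4, and Defb43 lies at −0.74 without OV replicate 3 against −1.70 with all arrays.

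Slide moved with many members inside the OV+E2 group. All 3 OV+E2 arrays of slide 2 lay above both of slide 1 for 9 of the 14 members, against 21.4% of all probes tested. These were Defb9, Defb20, Defb22, Defb24, Defb25, Defb36, Defb51, Defb52 and the second Defb50 probe. The OV group did not show the same order. Its only array on slide 2, OV replicate 5, was the lowest of OV for Defb9, Defb24, Defb36, Defb52 and the second Defb50 probe. It was the highest for Defb20 and lay between the others for Defb22, Defb25 and Defb51. The OV+E2 arrays of slide 2 also detected more of all probes, 66.9% to 67.8%, against 64.0% to 64.7% on slide 1. The split of members by slide was looked at after the values were seen. Defb42 and Defb43 were not among the 9.

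Markers of other cells moved with the groups beside these values. The summed level of 8 microglia markers, on the linear scale relative to the 75th percentile, was 17.0 to 20.5 on OV+E2 arrays and 22.2 to 38.2 on OV arrays. For 10 neutrophil and blood markers it was 97.2 to 136.5 on OV+E2 arrays and 145.7 to 157.3 on OV arrays. Nearly all of that sum was the haemoglobin gene Hba-a1, which averaged 6.89 ± 0.19 in OV+E2 and 7.22 ± 0.05 in OV on the log2 scale. Of the neutrophil genes S100a8 was at −1.15, S100a9 at −0.33 and Csf3r at 0.30. Mmp8 was detected on 0 arrays, Camp on 0 OV+E2 and 2 OV arrays, and Cxcr2 on 1 OV+E2 and 0 OV arrays. Both sums separated the groups as Defb42 did, and their part in its difference was not tested. Of these lists 5 of 8 and 6 of 7 tested members were lower, with 0 passing an adjusted p of 0.05 and 4 and 5 lower at an unadjusted p under 0.05 in limma, against 49.8% of all probes lower and 7.17% lower at that p. In bulk tissue fewer cells of a type and less RNA per cell cannot be told apart.

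Markers of stratified epithelium, where beta-defensins are typical, summed to 14.3 to 17.1 on OV+E2 arrays and 13.2 to 45.4 on OV arrays. The sum on OV arrays 1, 2, 3 and 5 was 13.2, 22.0, 45.4 and 20.5, so the lowest and highest arrays were those of Defb43. Most of it was Trp63, at 3.48, 4.31, 5.44 and 4.21 on those OV arrays on the log2 scale, against 3.61 to 3.90 in OV+E2. The match with Defb43 is therefore that of 1 probe. The keratin genes Krt5, Krt14, Krt1 and Krt10 averaged −3.93, −3.34, −3.01 and 0.38 in OV. Their differences were 0.41, −0.24, −0.04 and 0.14. Of the 8 epithelial markers 6 were lower and 2 higher in OV+E2, with 0 at an unadjusted p under 0.05 in limma. The part of these markers in the Defb43 values was not tested. Choroid plexus markers summed to 254.3 to 476.8 on OV+E2 arrays and 11.7 to 749.5 on OV arrays. OV replicate 2 was at 11.7, and OV replicates 1, 3 and 5 were at 343.8, 749.5 and 307.2, within or above the OV+E2 range. Most of that sum was Ttr, at 8.42 ± 0.32 in OV+E2 and 7.40 ± 2.72 in OV on the log2 scale. With the 75th percentile scaling all 8 choroid plexus markers were higher in OV+E2, against 49.8% of all probes lower. The median of the 8 was 0.69 (1.06 without OV replicate 3), and 0 passed an adjusted p of 0.05 in limma. A median without OV replicate 2 was not worked out.

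Other defence and partner genes were described from 4 lists. Of 24 other antimicrobial proteins 23 had a probe, 5 of these were never detected and 13 were tested. None passed an adjusted p of 0.05 in limma, 6 were lower and 7 higher, and the median was 0.05, against 0.00 for all probes. S100a8, which encodes a subunit of the calprotectin complex of neutrophils, was at −1.15 (SE 0.30, adjusted p = 0.265 in limma). Spag11a, an epididymal gene with a defensin-like product, was at −0.17 (SE 0.09). Lysozyme gene Lyz2 was at 0.10 (SE 0.08). The neutrophil genes Ltf and Elane and the lectin gene Reg3g were detected on 0 arrays.

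Of 9 receptor and sensing genes 5 were tested, with 3 lower, 2 higher and 0 passing an adjusted p of 0.05 in limma. Tlr2, a receptor for bacterial lipoproteins, was at −0.39 (SE 0.10, adjusted p = 0.269 in limma). Ccr6 was at 0.04 (SE 0.19), and at −0.017 without OV replicate 3. Its chemokine Ccl20 was detected on 0 arrays. Of 14 genes of the pathways that induce beta-defensins in epithelia, among them the inhibitor gene Nfkbia, 9 were tested, with 5 lower, 4 higher and 0 passing. Nod2, a sensor of bacterial peptidoglycan, was at −0.59 (SE 0.17, adjusted p = 0.299 in limma) and the TNF receptor gene Tnfrsf1a at −0.36 (SE 0.12). The cytokine genes Il17a and Il22 were detected on 0 arrays.

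Of 10 genes typical of epididymal epithelium 5 were detected on 0 arrays, among them Crisp1, Cst8 and Rnase9, and 3 were tested. Lcn5, which encodes a retinoid-binding lipocalin, averaged −3.87 ± 0.95 in OV+E2 and −1.95 ± 1.18 in OV, a difference of −1.92 (SE 0.63, adjusted p = 0.347 in limma). The groups overlapped, and without OV replicate 3 the difference was −1.35. Adam7 was at 0.87 (SE 0.83), and at −0.11 without OV replicate 3. Lcn8 was at 0.33 (SE 0.24).

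Promoters were read for letters of the estrogen response element. RefSeq (GRCr8) gave the 250 bases before the start for 26 member genes. The full element, GGTCA and TGACC with 3 bases of any kind between them and the same on both strands, was in 0 of 26, against 8 of 33469 promoters in all. Its half-site, GGTCA on either strand (which also counts inside the full element), was in 12 of 26 (46.2%), against 35.4% of all promoters. Neither Defb42 nor Defb43 held a half-site in this window.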

How the data were processed

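Arrays were 1-colour Agilent Cy3 arrays made from 200 ng of RNA per rat. Per the file headers, the deposited processed signal is an intensity after background subtraction by Feature Extraction 10.7.3.1 (protocol GE1_107_Sep09), with probe positions of rn4; the submitters' processing notes name version 9.1. The deposited detection flags are other values, 0 or 1 per spot. For the intensity in the authors' own value table (30469 probes, 321 empty cells) the scaling is not given in these sources.

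Control spots (4259 of 62976) and spots marked as outliers were left out, and log2 signals of a probe were averaged. Each array was centred on its 75th percentile. Probes detected (the flag for well above background) on 4 or more of 9 arrays entered limma 3.58.1 (R 4.3.3) with group as the only term and Benjamini-Hochberg adjustment over all 30215. Of these 40 lack a value on some array, and none of the 40 is a beta-defensin. The steps were tested on simulated data. Where a gene of a list had several probes, the brightest represented it.

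The family, its lists and its tests were chosen with earlier results of these data known. By rule, every beta-defensin probe detected on at least 1 array was named, and of each list up to 3 tested members of smallest p in each direction; some of these are given only in counts. Of 44 members 37 matched RefSeq by accession. Precision is limited by how many arrays there are. Alternatives were other scalings, normexp background correction (offset 50), other filters, slide or replicate number as a block, array weights, the authors' table, and leaving out each array. For members detected in 1 group only, the folds without OV replicate 3 were added after seeing the data.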

Additional observations from a re-analysis of the deposited data

Results flagged for a closer look

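Among 28 groups examined (14 members in 2 groups) 1 held an array far from the rest by Dixon's ratio. For Defb29 in OV, replicate 3 stood at −3.35 on the scaled log2 scale, against −2.05 for the nearest of the other OV arrays. Defb29 was not well above background on that array, the dim one. Chance gives such a value in about 5% of groups. In the authors' deposited table Defb29 stood at 172.3 on OV replicate 3, and the scanner file gave 12.8.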

How the results depend on the processing

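Of the 13 tested members counted here (Defb42 was left out of the counts), 0 passed an adjusted p of 0.05 under any alternative except array weights, where 1 did (Defb43). The count at an unadjusted p under 0.05 in limma was 0 with quantile normalization, median scaling, normexp or slide as a block. Under these settings 2305 to 3269 of 30215 probes in all reached that p. With no filter on dim probes the count was 0 (4353 of 45598 in all). It was 3 with array weights (9514 of 30215 in all) and 2 in the authors' values (5655 of 30000 in all). With 1 array left out it was 0 to 2 (2022 to 5330 of 30215 in all). The related lists had 1 of 56 members past an adjusted p of 0.05 without the filter (9 of 45598 probes in all) and 6 of 30 with array weights (3506 of 30215). With the looser flag for signal above background 25 members were detected on at least 4 arrays, in place of 14 (share of all probes not worked out). Replicate numbers were not treated as pairs, as same-numbered arrays correlated at 0.170, −0.0761, −0.0110 and 0.105 in their deviations. With replicate number as a block 1 member had an unadjusted p under 0.05 in limma (Defb1, −0.41), beside 1966 of 30215 probes in all. In that fit 0 members passed adjustment.

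Defb42 ranged from −1.22 to −0.69, Defb43 from −2.56 to −0.74, Defb27 from −0.82 to −0.27 and Defb1 from −0.59 to −0.021. The other 10 members turned in direction under some alternative. Quantile normalization put Defb9 at 0.11 and Defb20 at 0.0027, and median scaling, which moved the median of all probes to 0.11, put them at 0.046 and 0.076. Normexp, which moved that median to −0.11, put Defb50 at −0.048, Defb25 at −0.078, Defb51 at −0.12, Defb29 at −0.23 and Defb52 at −0.25. Slide as a block put Defb9 at 0.021, and array weights put Defb29 at −0.22. The authors' values put Defb29 at −0.22, Defb24 at 0.016 and Defb9 at 0.47, then Defb29 at −0.21 and Defb9 at 0.28 without OV replicate 3, and −0.19 and 0.46 with slide as a block. Within slide 1 Defb50 was at −0.091, Defb25 at −0.14, Defb36 at −0.25 and Defb52 at −0.43. Within slide 2, with 1 OV array, Defb22 was at 0.17, Defb29 at −0.41, Defb24 at 0.32 and Defb9 at 1.26. With 1 array left out Defb9 ranged from −0.43 to 0.28, Defb20 from −0.11 to 0.032, Defb25 from −0.0030 to 0.13 and Defb29 from −0.21 to 0.28. The cause of these turns was not tested.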

Other observations

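For OV replicate 3 the authors' deposited table and the scanner file did not hold the same values, and which of them holds that rat is not known. The authors' column correlated with the scanner signal at 0.939 over the probes of the table, and the other 8 columns at 0.9999 or above. In the authors' deposited table Defb42 stood at 75.3 on OV replicate 3, beside 60.2, 73.4 and 83.2 on OV replicates 1, 2 and 5. In the authors' deposited table Defb36 stood at 90.8 on OV replicate 3, beside 105.8, 131.2 and 92.4 on the other OV arrays, so the OV array that was highest for Defb36 in the scaled scanner values was the lowest there.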
